A study of Mus musculus with 2 samples.

Results

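Otx2, Pou3f1, Sox3, Zic2, Fgf5, Fgf8 and Sfrp2 are 7 genes that mouse pluripotent cells are known to express more strongly when they leave the naive state. They were chosen by symbol, and all 7 were found among the 55415 features of the count tables. The tables hold 2 single-cell libraries of 1 mouse embryonic stem cell line, which carries a GFP reporter driven by the promoter of the endogenous retrovirus MERVL and H2B-mIFP as a cell tracker. One library is labelled MERVL GFP positive and the other MERVL GFP negative, so both groups carry both transgenes and differ by the labelled state of the reporter. The labels name the line only as mESC, and no clone number, passage, culture medium or sorting gate is given in them. The positive library held 4596 cells after filtering and the negative library 3832. With 1 library per group there is no replicate, so no test was made. Library, batch and reporter state cannot be told apart, and every interval below covers counting error only.

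Naive stem cells resemble the inner cell mass of the blastocyst and express Zfp42 (Rex1), a zinc finger gene that is lost early in differentiation. On the way to the primed state of the epiblast, cells lower Zfp42 and raise genes such as those studied here, through a formative phase in which OTX2 and POU3F1 are known to redirect OCT4 to new enhancers. Separately, a small share of naive cells passes through a state resembling the embryo at the 2-cell stage, which switches on MERVL and the Zscan4 genes, a family of zinc finger genes with a SCAN domain. The comparisons ask which cells express the primed genes, whether they do so where Zfp42 is low, and how their levels vary with Zscan4 and GFP transcripts.

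In mm10 the genes are spread over the genome. Otx2 lies on chromosome 14 (48657677 to 48673819, minus strand) and Zic2 on the same chromosome (122475435 to 122479852, plus strand). Pou3f1, a gene of 1 exon, lies on chromosome 4 (124656807 to 124660655, plus strand), and Sox3, also of 1 exon, on chromosome X (60891366 to 60893430, minus strand). Fgf5 is on chromosome 5 (98254184 to 98277030, plus strand), Fgf8 on chromosome 19 (45736798 to 45742915, minus strand) and Sfrp2 on chromosome 3 (83766321 to 83774316, plus strand). Annotated genes overlap Otx2, Pou3f1 and Sfrp2 on the opposite strand: Otx2os1 held 15 UMIs (unique molecular identifiers, 1 per captured molecule) in the positive and 28 in the negative library, Gm2164 held 5 and 22, and Gm26771 held 147 and 137. Whether the counting used strand is not given in the sources used here, so reads of these overlapping genes may not be fully separated.

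RefSeq promoter sequences (GRCm38.p6) were at hand for 3 of the 7 genes. The windows of Otx2 and Sfrp2 are shown because these genes behaved differently below, and that of Zfp42 because its transcript defines the classes of cells. Each window is the 250 bases before an annotated start, read 5′ to 3′ on the gene's strand, with motif matches in capitals. The Otx2 window (chr14:48667645-48667894, the most upstream of its 4 starts in the table) overlaps no GENCODE exon, nor do those of Sfrp2 (chr3:83766071-83766320) and Zfp42 (chr8:43307010-43307259).
Otx2: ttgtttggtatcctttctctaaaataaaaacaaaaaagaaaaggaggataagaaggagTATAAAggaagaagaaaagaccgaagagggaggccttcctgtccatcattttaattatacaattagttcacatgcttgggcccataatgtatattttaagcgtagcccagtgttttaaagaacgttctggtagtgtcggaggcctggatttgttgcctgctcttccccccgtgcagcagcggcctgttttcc
Sfrp2: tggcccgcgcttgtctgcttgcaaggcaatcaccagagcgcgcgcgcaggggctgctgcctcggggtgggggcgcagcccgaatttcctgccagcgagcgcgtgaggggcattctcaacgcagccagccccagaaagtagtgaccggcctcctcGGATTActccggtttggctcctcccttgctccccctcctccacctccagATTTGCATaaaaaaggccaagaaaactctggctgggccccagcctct
Zfp42: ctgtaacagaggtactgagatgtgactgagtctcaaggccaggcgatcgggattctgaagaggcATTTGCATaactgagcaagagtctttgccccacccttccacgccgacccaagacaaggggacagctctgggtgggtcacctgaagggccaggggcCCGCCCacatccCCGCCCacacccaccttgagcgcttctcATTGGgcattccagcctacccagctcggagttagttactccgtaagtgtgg

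The motifs searched on both strands were the octamer ATGCAAAT that POU factors recognise, TAATCC (OTX type), ACAAAG (SOX and TCF type), CACGTG (E-box), GGGCGG (GC box), CCAAT and TATAAA. Sfrp2 and Zfp42 each held the octamer on the reverse strand, beginning 47 and 186 bases before the start. Of 32851 promoter windows of this length, 1.60% held an octamer. Sfrp2 also held 1 TAATCC match on the reverse strand (6.25% of windows held one), 96 bases before the start. The Otx2 window shown held only TATAAA, 192 bases before the start (12.4% of windows). Of its 3 other windows, 1 held TAATCC on the reverse strand 211 bases before the start, 1 held CCAAT on the reverse strand 70 bases before it, and 1 held no match. Zfp42 held 2 GC boxes (32.7% of windows held one) and 1 CCAAT match (33.8%). CG dinucleotides numbered 6 in the Otx2 window, 16 in that of Sfrp2 and 9 in that of Zfp42, beside a median of 6. A match describes these letters only and is not evidence of binding.

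The libraries differed in depth, which bears on every share of cells below. Median UMIs per cell were 29554.5 in the positive and 39099.5 in the negative library, and the median mitochondrial share was 2.56% and 1.60%. Levels are given as CPM, a gene's UMIs divided by all UMIs of the summed cells, on the usual counts-per-total scale. Shares of cells were counted after every cell was thinned to 10000 UMIs, which left 4402 positive and 3824 negative cells. The same thinned UMIs set the classes of Zfp42, Zscan4 and GFP. Markers of pluripotent stem cells (Pou5f1, Sox2, Nanog, Esrrb, Dppa5a, Tdgf1) were detected in both libraries, none of them at 0, as the label requires. Some cells carried primitive endoderm transcripts: 329 positive and 174 negative cells had 10 or more thinned UMIs of 10 endoderm markers and are called endoderm-high. A further 57 and 21 cells had 8 or 9. The 2 libraries shared 3 cell barcodes.

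The 7 genes did not move as a group between the libraries. Sox3 was far higher in the positive library, Otx2 lower, and the rest moved by smaller amounts in both directions (see the plot of levels and shares by library). A gene was called past the fold where its CPM differed at least 2-fold and it had at least 50 UMIs in all. Of the 7, Sox3 and Fgf5 (2 genes) were called higher, where 18.3% of the 19341 genes examined were, and Otx2 was called lower, where 2.48% were. The median log2 ratio was -0.25 over the 7 and 0.26 over all genes examined. Summed markers of other cell types were also higher in the positive library: primitive endoderm at 232 against 117 CPM (2 of 10 past 2-fold higher), trophoblast at 104 against 65.5 CPM (4 of 8), neuroectoderm at 14.3 against 8.14 CPM (3 of 9) and mesendoderm at 7.90 against 4.53 CPM (3 of 8). In each of the trophoblast, neuroectoderm and mesendoderm lists 1 marker was past 2-fold lower. Fibroblast or feeder markers were at 21.5 against 7.65 CPM (3 of 9 higher), with 2 of the 9 at 0 in the negative library. No marker of the other lists was at 0 in either library. The part of all these markers in the members' ratios was not tested.

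Among the transcription factors, Sox3, a SOXB1 factor of the epiblast and neural plate, had 18.0 CPM (2494 UMIs) in the positive and 1.11 CPM (174 UMIs) in the negative library. That is a ratio of 16.2 (95% interval 13.9 to 19.0), the largest of the 7. Otx2, a homeodomain factor of the formative epiblast, went the other way. It had 7.45 CPM (1031 UMIs) in the positive and 19.5 CPM (3057 UMIs) in the negative library, which was 2.62-fold lower in the positive library (2.44 to 2.82). Pou3f1, a POU factor also called Oct6, had 14.1 CPM in the positive and 8.43 CPM in the negative library, a ratio of 1.67 (1.56 to 1.79). Zic2, a zinc finger factor that binds enhancers in pluripotent cells, had 6.54 and 9.5 CPM, 1.45-fold lower in the positive library (1.34 to 1.58). Neither Pou3f1 nor Zic2 was past 2-fold.

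The secreted factors were either scarce or similar between libraries. Fgf5, a growth factor and the classical marker of the primed epiblast, was the least detected of the 7 by UMIs. It had 50 UMIs in the positive (0.362 CPM) and 26 in the negative library (0.166 CPM), a ratio of 2.17 with an interval of 1.33 to 3.64 that extends below 2. Fgf8, a growth factor of gastrulation, had 0.853 and 1.06 CPM, a ratio of 0.804 whose interval (0.629 to 1.02) includes 1. Sfrp2, a secreted antagonist of WNT ligands, had 11.95 and 14.2 CPM, a ratio of 0.842 (0.790 to 0.898). Scaling by edgeR's TMM moved the median of all genes from 0.26 to -0.03 and the share of calls that were higher from 88.0% to 69.9%. Fgf5 then had a ratio of 1.77 and was not called, while Sox3 (13.2) and Otx2 (0.311) kept their calls and Pou3f1 had a ratio of 1.36.

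**Figure D1:**
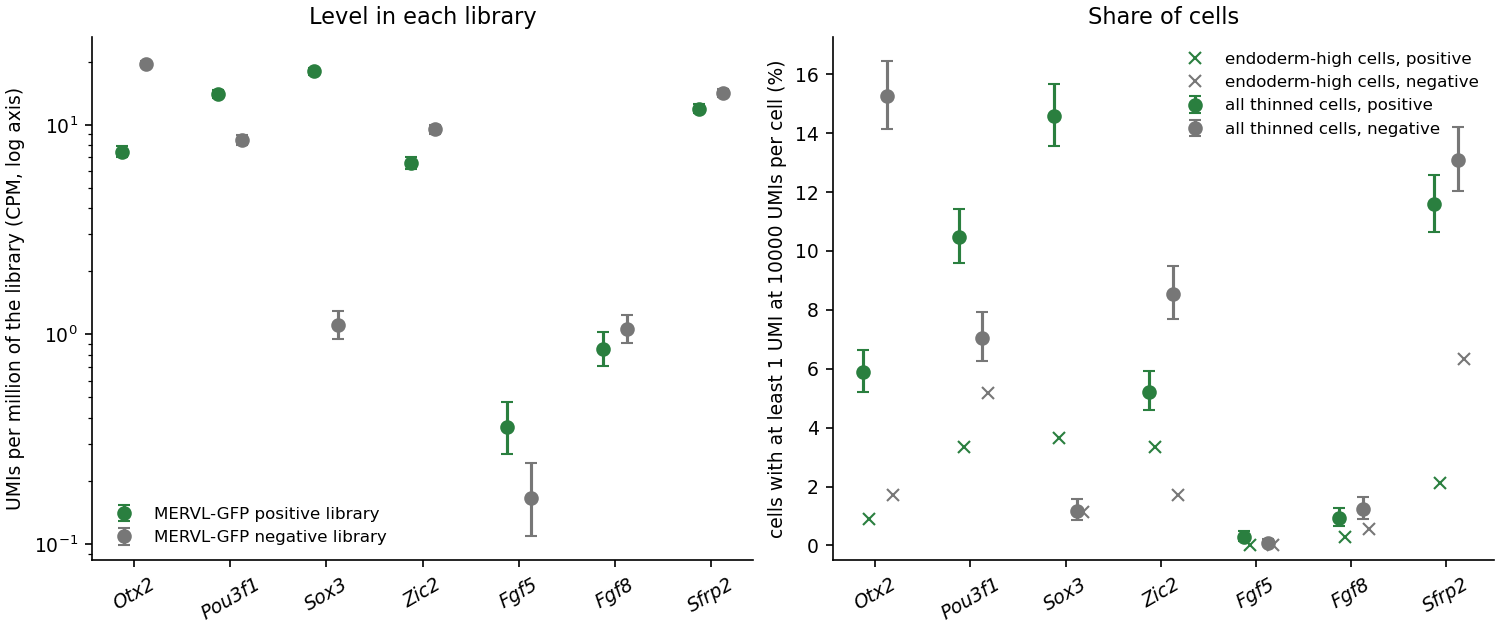
Level of each gene in the 2 libraries (left, CPM on a log axis, bars are 95% Poisson intervals) and share of cells with at least 1 UMI at 10000 UMIs per cell (right, bars are 95% exact binomial intervals, crosses are endoderm-high cells). Sox3 stands at 18.0 CPM in the positive and 1.11 CPM in the negative library, and Otx2 at 7.45 and 19.5 CPM.

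Most cells of either library had no UMI of any of the 7 genes at equal depth. In the negative library 2341 of 3824 thinned cells had none, 1221 had a UMI of 1 gene, 232 of 2, 28 of 3 and 2 of 4. In the positive library 2664 of 4402 cells had none, 1362 had 1, 336 had 2, 37 had 3 and 3 had 4. No cell of either library had UMIs of 5 or more. These numbers lay near the product of the single shares, which gives 2333.9 and 2621.64 cells with none. Detection of 1 member came mostly without the others.

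Otx2 was detected in 15.3% of negative cells (584 cells, interval 14.1 to 16.5) and 5.91% of positive cells (260 cells, 5.23 to 6.64). In endoderm-high cells, whose median depth was 39462 UMIs against 39129 in all negative thinned cells, its share was 1.72%. The endoderm-high share in the positive library was 0.912%, with a median of 30853 UMIs against 30176.5. Sox3 was detected in 14.6% of positive cells (642 cells) and 1.18% of negative cells (45 cells). In negative endoderm-high cells the share was 1.15% (2 of 174 cells, 0.140 to 4.09), too few to tell the negative share from background or to call it background. The positive endoderm-high share was 3.65%. Before thinning, Sox3 was seen in 29.9% and 4.12% of cells.

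Pou3f1 was detected in 10.5% of positive and 7.06% of negative cells, with 3.34% and 5.17% of endoderm-high cells, and the negative endoderm-high interval (9 of 174 cells, 2.39 to 9.59) includes the share of all negative cells. Zic2 was in 5.22% of positive and 8.55% of negative cells (endoderm-high 3.34% and 1.72%). Sfrp2 was in 11.6% and 13.1% (endoderm-high 2.13% and 6.32%). Fgf8 was in 0.931% and 1.23% (endoderm-high 0.304% and 0.575%, resting on 1 cell each). Fgf5 was in 13 positive cells (0.295%) and 3 negative cells (0.0785%), and in none of the endoderm-high cells. Extraembryonic endoderm can itself express Otx2, so for this gene the endoderm share is no strict background.

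High counts within single cells were rare. A single cell held up to 33 Pou3f1 UMIs before thinning in the negative and 45 in the positive library, where the highest for Otx2 was 15 and 8. After thinning, 38 negative cells had 3 or more Otx2 UMIs (7 of them low in Zfp42) and 8 had 3 or more Pou3f1 UMIs (6 of them low). In the positive library 9 cells had 3 or more Otx2 UMIs and 34 had 3 or more Pou3f1 UMIs. Sox3 reached 12 thinned UMIs in 1 positive cell, and 37 positive cells had 3 or more. No negative cell had more than 1 thinned Sox3 UMI.

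In the negative library, cells low in Zfp42 had a higher summed level of Pou3f1 and a lower one of Otx2 than cells high in Zfp42. Cells with 0 to 3 thinned Zfp42 UMIs are called low (358 cells) and those with 10 or more high (2551 cells), with 915 between them. Near the edge of the low class, 102 cells had 3 and 96 had 4. Pou3f1 was at 17.7 CPM in low, 10.1 in middle and 6.63 in high cells, a low to high ratio of 2.67 (2.30 to 3.10). It was the single member called, of 6 with enough UMIs, where 5.20% of 15330 genes were called higher and 4.66% lower. The share of cells with Pou3f1 differed less than the level: 9.497% of low cells (34 cells, 6.67 to 13.02) and 6.35% of high cells (162 cells, 5.44 to 7.37) had a UMI, with overlapping intervals. Without the cell with most Pou3f1 UMIs in each class, an alternative added after the data were seen, the ratio was 2.40. Otx2 was at 12.4, 21.7 and 19.7 CPM in the same classes and its ratio was 0.628 (0.534 to 0.735). Zic2 was at 7.66, 9.21 and 9.84 CPM (0.778, 0.631 to 0.952). Sfrp2 was level at 14.9, 14.1 and 14.1 CPM (1.06, 0.910 to 1.23), and Fgf8 had 0.875, 1.10 and 1.07 CPM (0.817, 0.410 to 1.48). Sox3 had 1.82, 1.02 and 1.05 CPM from 25, 38 and 111 UMIs (1.73, 1.08 to 2.69).

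Fgf5 had 11 UMIs in the 358 low cells and 11 in the 2551 high cells of the negative library. The ratio of 7.69 has an interval of 3.02 to 19.6, and the gene missed the minimum of 50 UMIs and was not called. Of the 3 negative cells with a thinned Fgf5 UMI, 1 was low and 2 were high in Zfp42. In the positive library 7 of the 13 Fgf5 cells were low (53.8%, interval 25.1 to 80.8), where 37.3% of cells without Fgf5 were low. These numbers are too small to place Fgf5 in either class.

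Endoderm-high cells made up 142 of the 358 low cells, and the summed endoderm markers stood at 896 CPM in low and 28.5 CPM in high cells, with all 10 past 2-fold and none at 0. Trophoblast markers were at 97.5 against 60.8 CPM (3 of 8). Without endoderm-high and Zscan4-high cells, 216 low cells remained. Pou3f1 was then at 26.0 CPM in low and 6.65 CPM in high cells, a ratio of 3.91 (3.33 to 4.57), and was seen in 12.96% of low (8.79 to 18.2) and 6.37% of high cells (5.45 to 7.38). Otx2 was level at 18.8 and 19.8 CPM (0.948, 0.798 to 1.12), and Zic2 had 12 and 9.86 CPM (1.22, 0.977 to 1.5). Sfrp2 had 20.9 and 14.2 CPM (1.47, 1.25 to 1.73), and Sox3, with 20 UMIs in low cells, 2.50 and 1.06 CPM (2.37, 1.39 to 3.84). So Pou3f1 and Sox3 (2 of 6 members) were called higher, where 3.24% of 15136 genes were and 6.70% were called in either direction. The Sox3 call rests on those 20 UMIs, and the share of cells with Sox3 did not separate: 3 of 216 low cells (1.39%, 0.287 to 4.01) and 1.14% of high cells. The endoderm markers were still at 206 CPM against 26.5 CPM, with 8 of 10 past 2-fold, and trophoblast markers were at 101.5 against 60.8 CPM, with 4 of 8 past 2-fold and none at 0. Their part in these ratios was not tested. The lower Otx2 of all low cells was not seen in this comparison, and the higher Pou3f1 was larger in it. This comparison was added after the data were seen.

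The lists of other formative and primed genes depended on which low cells were taken. Over all 358 low cells of the negative library, 5 of 24 such genes with enough UMIs were past 2-fold higher and 1 lower, with a median log2 ratio of -0.10 beside 0.00 over all genes. In the 216 low cells 7 were higher, where 3.24% of all genes were, and none lower, where 3.46% were, with a median of 0.22 beside 0.02. The median thus differed in sign between the 2 sets of cells. Dnmt3b, a DNA methyltransferase of the epiblast, was 4.54-fold higher in the 216 low cells (126 against 27.9 CPM) and 7.58-fold higher with the endoderm-high cells kept (217 against 28.6 CPM). Lef1, a WNT effector, was at 34.4 against 7.79 CPM in the 216 cells (4.41-fold). Zfp42 itself is 1 of the 15 naive genes and was lower by the choice of the classes. Of the 14 others, 5 were lower and 1 higher in the 216 cells. Nanog, a core naive factor, was at 76.9 against 222 CPM, and Dppa3, a maternal factor, was the 1 higher gene, at 15.8 against 6.99 CPM. Among FGF and ERK genes 2 of 16 were higher and 1 lower. The receptor gene Fgfr2 was at 13.4 against 1.76 CPM (7.60-fold, and 16.4-fold in all low cells) and the ligand gene Fgf4 at 42.4 against 92.5 CPM. Of 9 WNT antagonists and relatives 2 were higher and 1 lower, with the antagonist gene Dkk1 at 14.4 against 0.628 CPM (22.9-fold, and 63.4-fold in all low cells). Dnmt3b, Fgfr2 and Dkk1 thus had larger ratios where endoderm-high cells were included.

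In the positive library, low Zfp42 went with less Otx2 and less Zic2. Low cells numbered 1646 and high cells 1665. Otx2 was at 3.33 CPM in low, 7.68 in middle and 10.6 in high cells, which is 3.19-fold lower in low cells (2.66 to 3.83). Zic2 was at 2.74, 6.14 and 9.87 CPM, 3.61-fold lower (2.97 to 4.42). These 2 of 6 members were called lower, where 4.83% of 16492 genes were, and none was called higher, where 9.16% were. Pou3f1 had 16.5, 14.4 and 11.9 CPM (1.39, 1.25 to 1.55), but its share of cells did not follow, with 9.90% of low (8.502 to 11.4) and 10.5% of high cells (9.02 to 12.02). Sox3 had 18.7, 23.9 and 14.04 CPM (1.33, 1.21 to 1.47), highest in the middle class. Sfrp2 had 9.02, 13.6 and 13.2 CPM (0.684, 0.605 to 0.773), and Fgf8 0.794, 1.01 and 0.798 CPM (0.995, 0.625 to 1.57).

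Of these 1646 low cells, 679 were Zscan4-high and 292 endoderm-high, and their median depth was 26329.5 UMIs against 33577 in high cells. With both kinds left out, 712 low cells remained. Otx2 was at 5.43 against 11.0 CPM (2.02-fold lower, 1.65 to 2.50) and Zic2 at 3.79 against 10.5 CPM (2.76-fold lower, 2.18 to 3.54), and these 2 of 6 were called, where 3.31% of 15403 genes were called lower. None was called higher, where 7.28% were. Pou3f1 was at 21.1 against 11.2 CPM, a ratio of 1.89 (1.67 to 2.15), and Sox3 at 18.5 against 12.4 CPM (1.495, 1.32 to 1.70). Sfrp2 was at 10.4 against 13.2 CPM (0.789, 0.675 to 0.920). Fgf5 had 22 UMIs in low and 16 in high cells (3.52, 1.77 to 7.17) and was not called for want of UMIs. Trophoblast markers were at 282 against 49.4 CPM (4 of 8 past 2-fold, none at 0), endoderm markers at 188 against 40.7 CPM (9 of 10, none at 0) and the Zscan4 family at 169 against 83.2 CPM (4 of 9, none at 0). In all positive cells the trophoblast markers were at 205 CPM in low and 50.4 CPM in high cells (3 of 8). The part of these transcripts in the ratios was not tested. Over all positive cells 2 of 25 other formative and primed genes were higher and 6 lower, with a median of -0.35, and in the 712 low cells 2 of 24 were higher and 4 lower. Of the 14 naive genes besides Zfp42, 10 were lower and 1 higher over all cells, where 4.83% and 9.16% of all genes were. In the 712 low cells 9 were lower and 2 higher. Dppa3 was higher in both sets, at 93.9 against 20.5 CPM over all cells. Fbxo15 was higher in the 712 low cells, at 978 against 487 CPM. In these 712 cells the 2 higher formative and primed genes were Krt18, an epithelial keratin that is also on the trophoblast list, at 128 against 7.09 CPM, and Dnmt3b at 101 against 27.6 CPM. Among the lower genes was Foxd3, a forkhead factor of pluripotent cells, at 3.94 against 44.8 CPM.

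**Figure D2:**
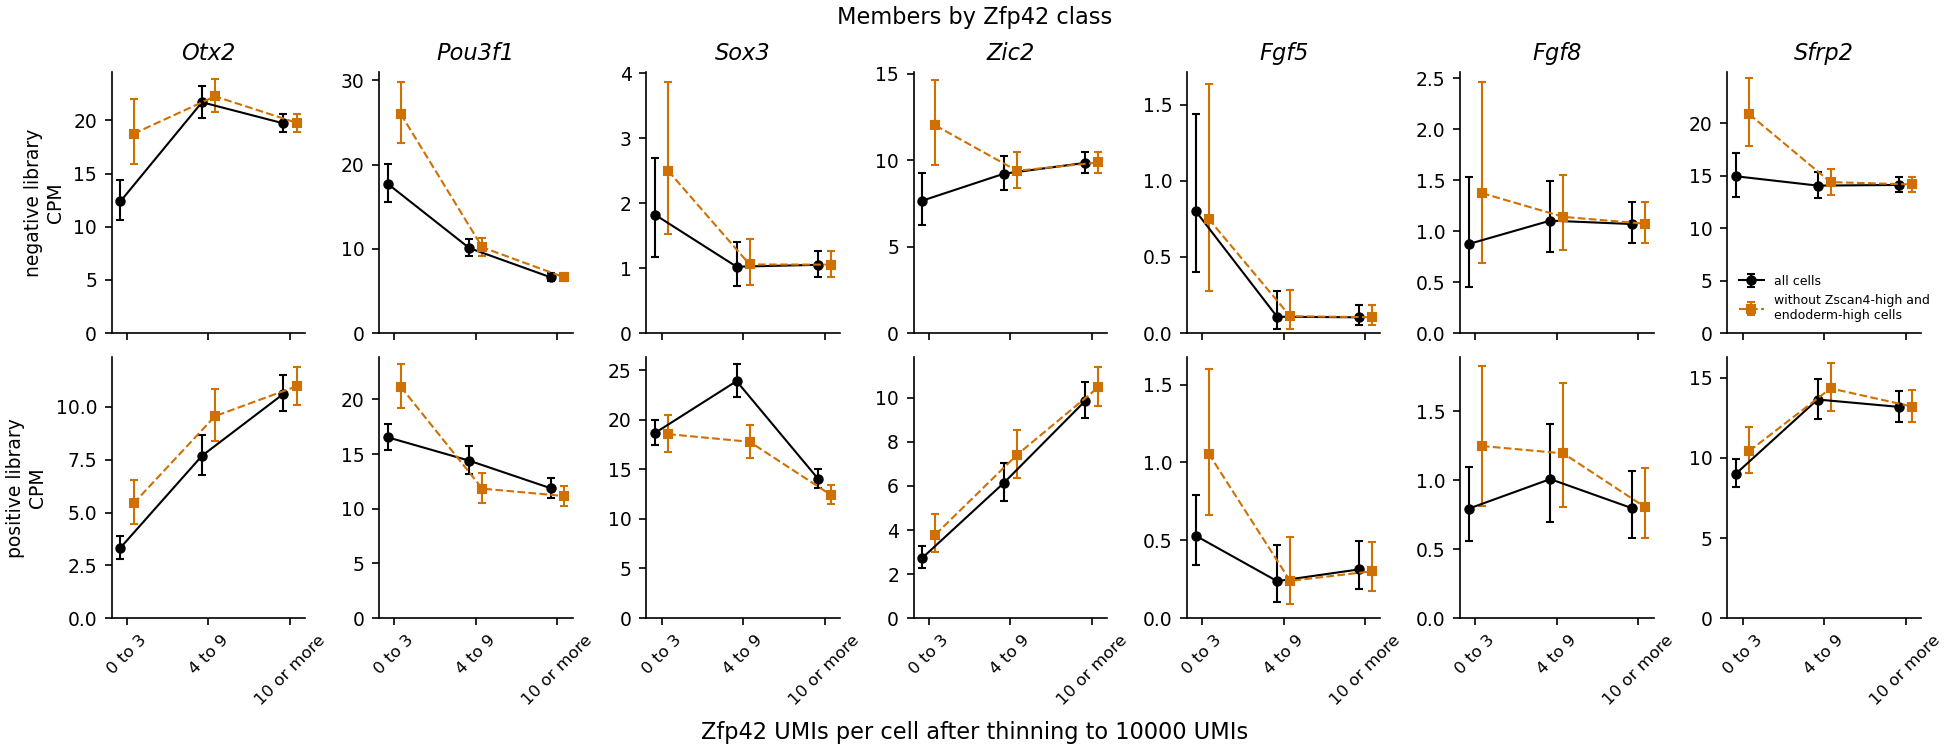
CPM of each gene by Zfp42 class (thinned UMIs per cell) in the negative (top) and positive (bottom) library, for all cells (black) and without Zscan4-high and endoderm-high cells (orange), with 95% Poisson intervals. In the negative library Pou3f1 is highest in the lowest class, 17.7 CPM in all cells and 26.0 CPM in the remaining ones, and in the positive library Otx2 and Zic2 are lowest there, at 3.33 and 2.74 CPM.

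Cells with more Zscan4 transcripts had more Sox3, less Otx2 and less Zic2. Zscan4-high cells have 5 or more thinned UMIs over the 9 Zscan4 features, and numbered 1104 among positive and 2 among negative cells, so the comparison was made in the positive library. The 1438 cells with 0 still carried 48.0 CPM of Zscan4 transcripts before thinning. Sox3 was at 33.4 CPM in high against 9.85 CPM in zero cells, a ratio of 3.39 (3.03 to 3.79). Otx2 was at 2.68 against 9.17 CPM, 3.43-fold lower (2.68 to 4.44), and Zic2 at 1.96 against 8.93 CPM, 4.55-fold lower (3.43 to 6.14). Of 6 members 1 was called higher, where 9.48% of 15628 genes were, and 2 lower, where 6.23% were. Pou3f1 was at 19.3 against 11.0 CPM (1.75, 1.55 to 1.98) and Sfrp2 at 11.4 against 11.7 CPM (0.971, 0.844 to 1.12). Fgf8 had 15 and 43 UMIs (0.606, 0.313 to 1.11) and Fgf5 6 and 26 (0.401, 0.135 to 0.997, not called).

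With the amount of Zscan4 the level of Sox3 went up and those of Otx2 and Zic2 went down, though not every step was clear. Over classes of 0, 1 to 4, 5 to 14 and 15 or more Zscan4 UMIs, Sox3 stood at 9.85, 17.4, 28.8 and 40.5 CPM. Otx2 stood at 9.17, 8.35, 3.46 and 1.46 CPM, the last from 16 UMIs in 495 cells. The second of these Otx2 values lies within the interval of the first (8.34 to 10.1). Zic2 stood at 8.93, 6.84, 2.11 and 1.73 CPM, the last 2 close together. Pou3f1 was at 11.0, 14.1, 14.4 and 26.9 CPM, with the highest level in the last class. Sfrp2 had 11.7, 12.3, 11.8 and 10.8 CPM, with overlapping intervals in all 4 classes. Across the classes the median depth went from 33146.5 to 20304 UMIs and the median mitochondrial share from 2.35% to 3.21%. Summed endoderm markers went from 269 to 112 CPM. The part of depth, mitochondrial share and endoderm transcripts in these levels was not tested.

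Because Zscan4-high cells were often low in Zfp42, both were crossed. Among cells high in Zfp42, the 134 that were Zscan4-high had 6.27 CPM of Otx2 and the 767 at 0 had 10.8 CPM. In the same cells Zic2 was at 2.41 against 11.1 CPM, Sox3 at 35.4 against 9.09 CPM and Pou3f1 at 21.5 against 10.4 CPM. In this subset the ratio of Otx2 was 0.581 and that of Pou3f1 was 2.07. These ratios rest on the 134 Zscan4-high cells and have no interval here, so their side of the 2-fold limit is not read as a result. Among cells low in Zfp42, Zscan4-high cells had 26.7 CPM of Sox3 and Zscan4-zero cells 8.15 CPM. The Zscan4-zero cells low in Zfp42 had 4.40 CPM of Otx2 and 2.84 CPM of Zic2, both below Zfp42-high cells of the same Zscan4 class, and their endoderm markers were at 923 CPM against 44.9 CPM.

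By reporter transcripts, Sox3, Otx2 and Zic2 differed in the same directions as by Zscan4. GFP-high cells (5 or more thinned GFP UMIs) numbered 762 among positive and 0 among negative cells, and 404 of the 762 were also Zscan4-high. Sox3 was at 34.2 CPM in GFP-high and 9.80 CPM in GFP-zero cells (3.49, 3.11 to 3.91). Otx2 was at 2.89 against 10.4 CPM, 3.58-fold lower (2.73 to 4.79), and Zic2 at 3.04 against 8.83 CPM, 2.90-fold lower (2.22 to 3.86). Of 6 members 1 was called higher, where 5.71% of 15600 genes were, and 2 lower, where 7.17% were. Over all these genes the median log2 ratio was -0.16. Pou3f1 was at 18.8 against 11.7 CPM (1.60, 1.41 to 1.82) and Sfrp2 at 11.9 against 11.5 CPM (1.03, 0.886 to 1.202). Fgf8 had 23 and 51 UMIs, a ratio of 1.28 (0.746 to 2.13), on the other side of 1 from its ratio by Zscan4, and both intervals include 1. Fgf5 had 4 and 30 UMIs (0.378, 0.0968 to 1.07, not called).

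Cells at 0 thinned Zscan4 UMIs were also compared by GFP, with a lower GFP limit of 1 UMI. The 638 with a GFP UMI and the 800 without had 12.7 and 7.59 CPM of Sox3 (1.68, 1.40 to 2.02). Otx2 had 7.40 and 10.6 CPM (0.702, 0.574 to 0.855), Zic2 8.34 and 9.38 CPM (0.889, 0.730 to 1.08) and Pou3f1 11.7 and 10.5 CPM (1.11, 0.936 to 1.32). None of 5 members was called, where 2.13% of 14097 genes were called higher, 0.482% lower and 2.61% in either direction. With the limit kept at 5 GFP UMIs in these Zscan4-zero cells, Otx2 was past 2-fold (0.406). Sox3 had a ratio of 2.00, just below 2 before rounding, Zic2 one of 0.703 and Sfrp2, level in all cells, one of 0.531. These ratios rest on the part of the 762 GFP-high cells at 0 Zscan4 UMIs and have no interval here. The share of all genes called at this setting is given in the closing section.

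Positive cells without a thinned UMI of either transcript also differed from the negative library in Sox3. The 800 cells without a thinned GFP or Zscan4 UMI had 7.59 CPM of Sox3 (6.60 to 8.70), where the thinned cells of the negative library had 1.11 CPM. Against negative cells chosen in the same way the ratio was 6.93. Otx2 was at 10.6 CPM in these positive cells, a ratio of 0.539, and Zic2 at 9.38 CPM, a ratio of 0.984 where all cells gave 0.689. Thus Zic2 was level between the libraries outside cells with GFP or Zscan4 UMIs, Otx2 was no longer past 2-fold, and Sox3 still was. Before thinning these positive cells carried 25.1 CPM of GFP and 41.5 CPM of the Zscan4 family, where the negative library carried 0.454 and 0.812 CPM, and their median depth was 33515.5 UMIs. The part of these remaining transcripts in the Sox3 level was not tested.

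**Figure D3:**
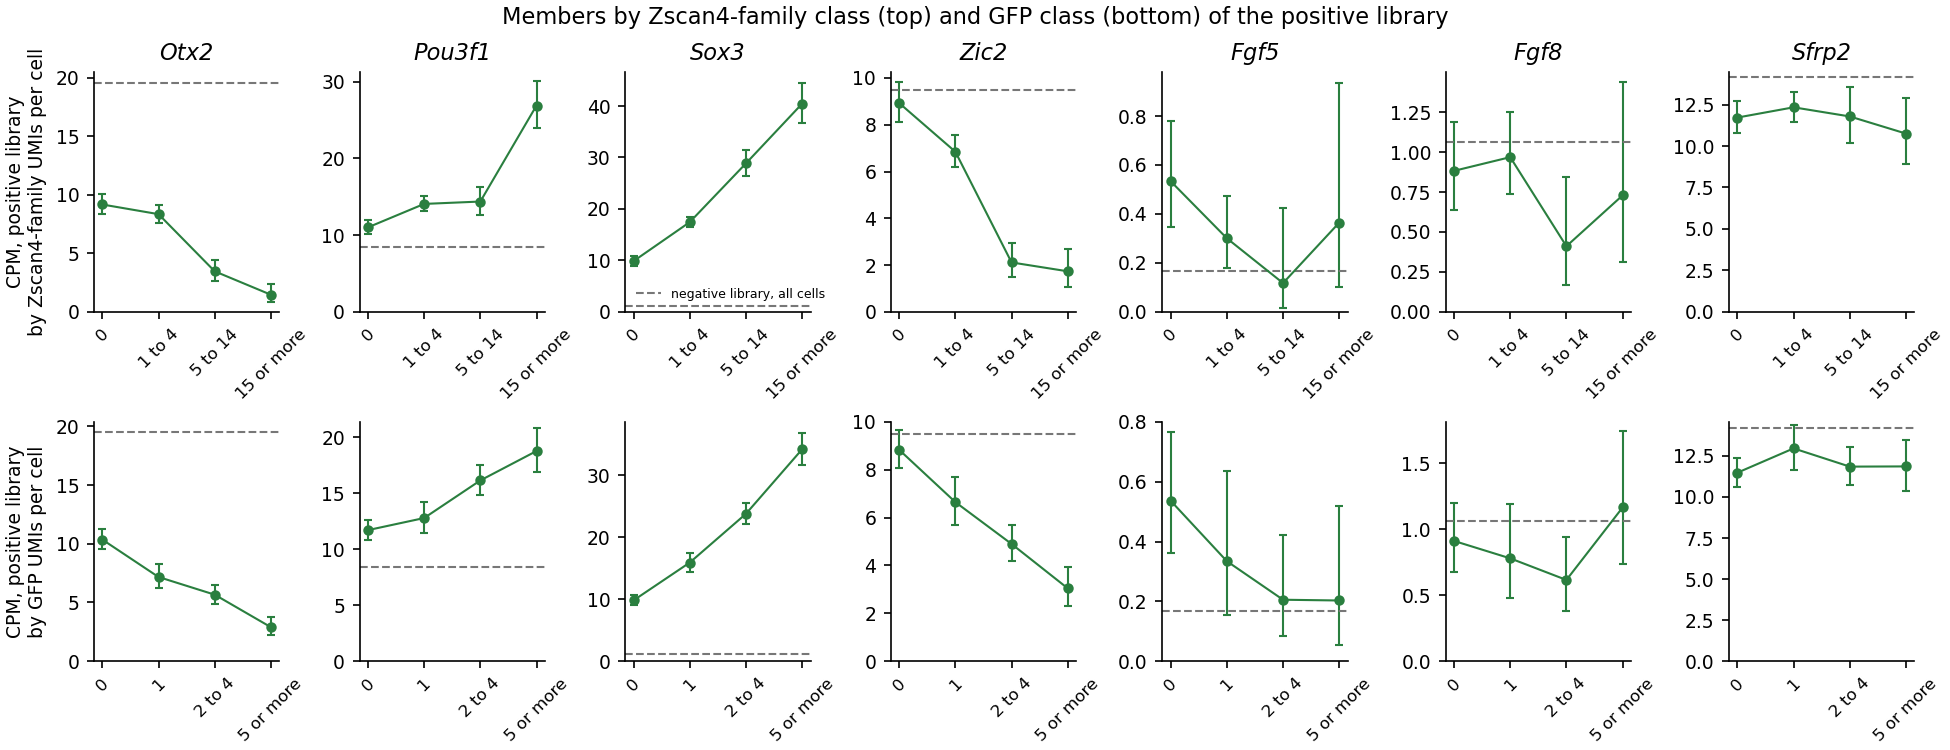
CPM of each gene in the positive library by Zscan4-family class (top) and GFP class (bottom), in thinned UMIs per cell, with 95% Poisson intervals and the level of the negative library as a dashed line. Sox3 goes from 9.85 to 40.5 CPM over the Zscan4 classes while Otx2 goes from 9.17 to 1.46 CPM and Sfrp2 stays between 10.8 and 12.3 CPM.

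The plot of ratios sets the comparisons side by side. The comparisons by Zfp42, Zscan4 and GFP in the positive library share cells, so their directions are not independent. Otx2 had a ratio below 1 in each of the 5 comparisons and Pou3f1 a ratio above 1 in each. In the negative library without endoderm-high and Zscan4-high cells, however, Otx2 was level by Zfp42, at 0.948 (0.798 to 1.12). Zic2 was below 1 in each as well, but in the negative library its ratio was 1.22 once endoderm-high and Zscan4-high cells were left out.

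**Figure D4:**
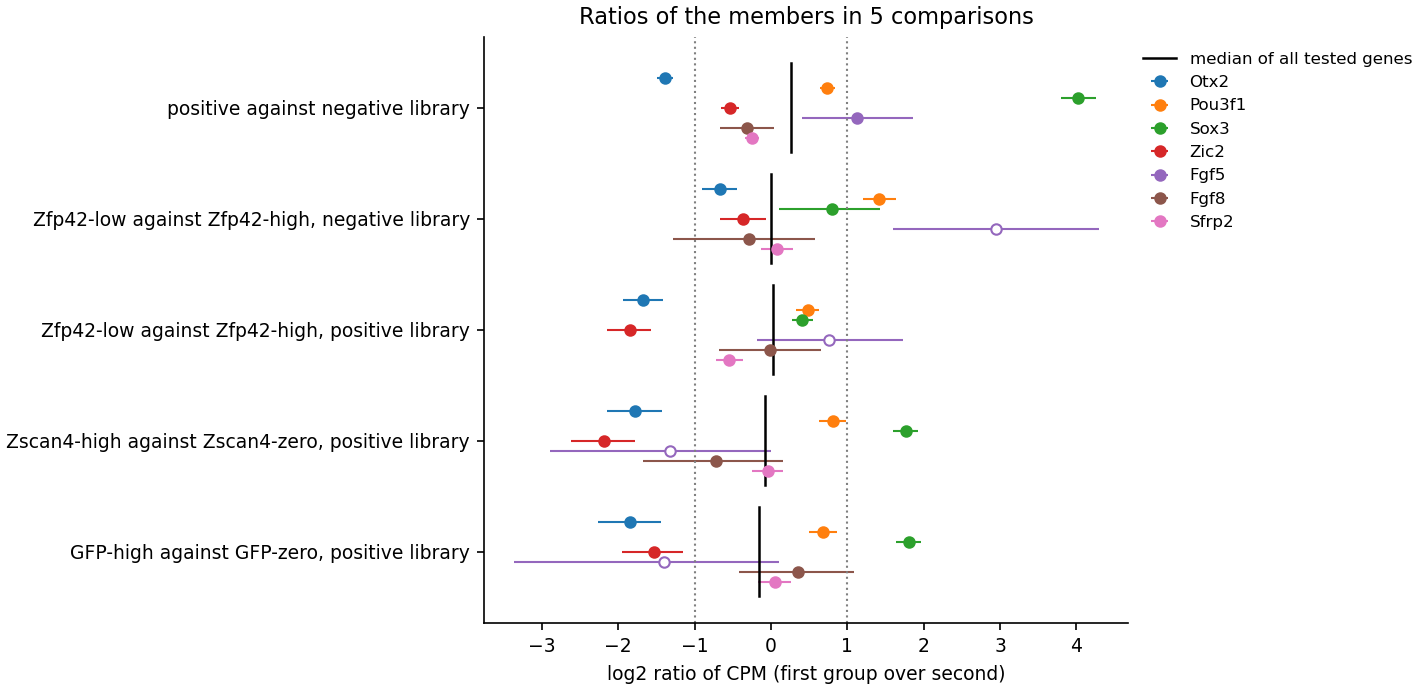
Log2 ratio of CPM of each gene in 5 comparisons with 95% conditional intervals, the median of all tested genes (black bar) and the 2-fold limits (dotted lines at -1 and 1). Open circles are ratios from fewer than 50 UMIs, which occur for Fgf5 alone, and Otx2 lies left of 0 and Pou3f1 right of 0 in all 5 comparisons.

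Related genes gave a reference for each factor. Zic5, which lies 9758 bases from Zic2 on the opposite strand, was at 10.7 CPM in the positive and 16.6 CPM in the negative library. It was 2.49-fold lower in Zscan4-high than in Zscan4-zero cells (5.35 against 13.3 CPM) and 2.26-fold lower in GFP-high cells. Sox2, a SOXB1 factor of pluripotent cells, was at 454 and 529 CPM in the libraries. It was at 225 against 561 CPM in Zscan4-high and Zscan4-zero cells. Both differences were opposite in direction to those of Sox3. Otx1, the relative of Otx2, had 0.723 CPM (100 UMIs) in the positive and 0.0831 CPM (13 UMIs) in the negative library, also opposite to its relative. Of 13 relatives examined between the libraries, 4 were past 2-fold higher and 1 lower. Of 25 other formative and primed genes 4 were higher and 3 lower, with a median log2 ratio of -0.07. Over all genes, 18.3% were higher and 2.48% lower. Tcf15, a helix-loop-helix factor of the primed transition, was at 62.9 CPM in the positive and 211 CPM in the negative library. In Zscan4-high cells 1 of these 25 was higher and 6 lower, where 9.48% of all genes were higher and 6.23% lower. In GFP-high cells 1 was higher and 5 lower, where 5.71% and 7.17% were.

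Most pairs of members were seen together about as often as their shares give. Otx2 and Zic2 were found together in 74 negative cells, where the product of their shares gives 49.9, a ratio of 1.48 (1.16 to 1.86). In the positive library they were together in 24 cells, where 13.6 were given (1.77, 1.13 to 2.63). Both genes were lower in the same Zfp42-low and Zscan4-high cells there, and within Zfp42-high cells the ratio was 1.13 (0.603 to 1.94) in the positive and 1.34 (0.980 to 1.80) in the negative library. Outside Zscan4 and endoderm-marked cells it was 1.32 (0.633 to 2.43) in the positive and 1.43 (1.13 to 1.80) in the negative library. Pou3f1 and Sfrp2 were together in 53 negative cells (1.498, 1.12 to 1.96) and 56 positive cells (1.05, 0.792 to 1.36). Pou3f1 and Sox3 were together in 85 positive cells (1.26, 1.01 to 1.56) and Sox3 and Sfrp2 in 97 (1.30, 1.06 to 1.59). Within Zfp42-high cells these ratios were 0.9997 (0.619 to 1.53) and 1.06 (0.684 to 1.56), and outside Zscan4 and endoderm-marked cells 0.842 (0.385 to 1.60) and 1.07 (0.599 to 1.77), with intervals that include 1. Within Zfp42-low cells they were 1.33 (0.918 to 1.87) and 1.49 (1.05 to 2.06), the latter clear of 1. Within Zscan4-high cells they were 1.24 (0.897 to 1.67) and 1.32 (0.941 to 1.79). Otx2 and Pou3f1 were together in 26 negative cells (0.631, 0.412 to 0.924), but the ratio was 1.55 with cells thinned to 5000 UMIs. That of Pou3f1 and Sfrp2 was then 0.818, so neither pair has a stable direction. Cells of a pair share their library and their depth after thinning.

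**Figure D5:**
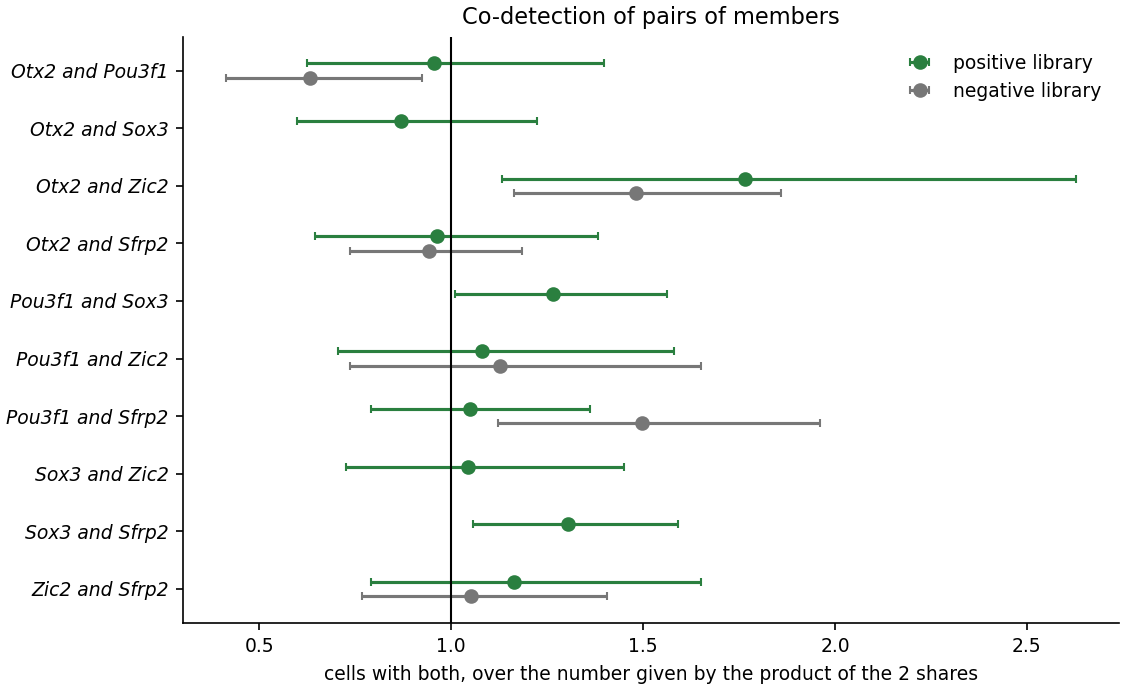
Number of cells with UMIs of both genes of a pair over the number given by the product of their shares, in each library at 10000 UMIs per cell, with 95% Poisson intervals. Pairs are shown where a library has 20 or more such cells, and points where it has 10 or more. Otx2 and Zic2 lie above 1 in both libraries, at 1.77 and 1.48.

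Genes most like each member were named by Pearson correlation across the 3824 thinned negative cells of log values, over 8969 genes seen in at least 5% of cells. All such values were weak and come from sparse counts within 1 library, so they describe and do not rank. For Otx2 they were Sox2 (0.123), Gpx4 (0.120) and Tdgf1 (0.106), with 0.135, 0.0725 and 0.112 in the positive library. For Zic2 they were its neighbour Zic5 (0.14, and 0.13 in the positive library), Trh (0.09) and Cacybp (0.09). For Pou3f1 they were Pim2 (0.149), Lef1 (0.0885) and Snrpn (0.0786), but these were 0.0422, 0.00577 and 0.0256 in the positive library. For Sox3 no value passed 0.08 in the negative library. In the positive library, added after the data were seen, its highest were Gm11238, Mtf2 and Eif1ad7 (0.20 each), beside 0.19 with the summed Zscan4 family. The values for Fgf5, Fgf8 and Sfrp2 did not pass 0.11.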

How the data were processed

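Counts were deposited by the authors as 1 matrix of whole-number UMIs per gene and cell for each library, with no normalization. Per the submitters' processing notes, FastQC 0.11.2, Trim Galore 0.6.4, STAR 2.7.6a and mm10 were used; how UMIs and strand were handled is not given in the sources used here. The labels' protocols describe a bulk RNA kit, so the capture chemistry is unknown. The 7 members and all gene lists were chosen with earlier results of these data known.

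Cells with at least 1000 UMIs, 500 genes and at most 20% mitochondrial UMIs were kept; 7 positive barcodes were left out, and no doublet caller was run. UMIs were summed per group and scaled to CPM. A gene was called at a CPM ratio of 2 with at least 50 UMIs in both groups together, and a group at 0 was set to 3 UMIs. Cells were thinned without replacement to 10000 UMIs (194 positive and 8 negative cells were too shallow). Intervals are exact Poisson, exact conditional (ratios) and exact binomial (Clopper-Pearson, shares) at 95%; they cover counting error only. The genes named are the members, their 3 most correlated genes, and up to 2 per list with the largest ratios in each direction; Sox2, Zic5 and the overlapping neighbours were added as references after values were seen. The calling rule was tested on simulated data. Locations come from GENCODE M21 (mm10), promoters from RefSeq (GRCm38.p6); 52081 of 55414 Ensembl IDs matched GENCODE, including all 7 members. Python 3.11.15 with numpy 2.4.6 and scipy 1.17.1 was used, and edgeR 4.0.16 for TMM factors. The alternatives tried are given in the closing section.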

Additional observations from a re-analysis of the deposited data

Results flagged for a closer look

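Sfrp2 had opposite directions by Zfp42 in the 2 libraries. Its ratio of low over high cells was 0.684 (0.605 to 0.773) in the positive and 1.06 (0.910 to 1.23) in the negative library, where the interval includes 1. Without endoderm-high and Zscan4-high cells the ratios were 0.789 (0.675 to 0.920) and 1.47 (1.25 to 1.73), with both intervals clear of 1. The shares of cells with an Sfrp2 UMI did not bear out opposite directions. In these remaining cells they were 12.1% of low (9.78 to 14.7) and 11.5% of high cells (9.91 to 13.2) in the positive library, and 16.7% (11.95 to 22.3) and 13.2% (11.9 to 14.6) in the negative library. In all negative cells they were 12.6% of low and 13.2% of high cells, and in all positive cells 9.90% and 11.8%. The difference between the libraries was not tested.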

How the results depend on the processing

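No paired analysis was possible because a single library stands for either reporter state. Alternatives that moved a count of called members by more than 1.5 times are given here, with those that ended the Fgf5 call; no ratio of a called member turned its direction. The percentage after a count is that of all genes called in either direction at that setting. Between the libraries, 3 members were called (20.7%). A fold of 4 left 1 (Sox3; 7.29%), as did leaving out cells with a thinned Zscan4 or GFP UMI (12.2%). Fgf5 was not called, leaving 2, under TMM and the median of ratios (18.9% each), CPM + 1 (7.02%) and a higher UMI minimum (15.6%). By Zfp42 in the negative library 1 was called (9.86%). A fold of 1.5 gave 3 (22.6%), a fold of 4 gave 0 (2.13%) and no UMI minimum gave 2 (Pou3f1 and Fgf5; 39.2%). Leaving out endoderm-high cells, alone (6.69%) or with Zscan4-high cells (6.70%), gave 2 (Pou3f1 and Sox3). By Zfp42 in the positive library 2 were called (14%) and a fold of 4 gave 0 (4.07%). By Zscan4 3 were called (15.7%), a fold of 1.5 gave 5 of 6 (32.8%) and a fold of 4 gave 1 (Zic2; 4.17%). By GFP 3 were called (12.9%), a fold of 4 gave 0 (3.49%), and Zscan4-zero cells alone gave 1 (Otx2; 10.4%). Of the 21 genes most like the members, 10 were also named among genes seen in at least 20% of cells. Of 406 member ratios recomputed, 347 stayed within the interval of the reported ratio, 59 moved outside it, and 16 lay on the other side of 1. The cause of these changes was not tested, beyond what each setting leaves out. Few UMIs of Fgf5 and Fgf8 were counted in any class, which limits the precision of their ratios.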
